A study of Mus musculus with 9 samples.

Results

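miR-199 and miR-214 are microRNAs (miRNAs) of the embryonic mesenchyme, followed here in small RNA sequencing of whole mouse kidneys at embryonic day 16.5. The members were the 6 deposited names mmu-miR-199a-3p, mmu-miR-199b-3p, mmu-miR-199a-5p, mmu-miR-199b-5p, mmu-miR-214-3p and mmu-miR-214-5p (written below without the species prefix), taken by exact name out of 1607 known mouse miRNA names with at least 1 read. Because miR-199a-3p and miR-199b-3p are the same mature sequence, their reads were added, which left 5 units, called arms below. The study made 3 libraries from DROSHA knockout kidneys, 3 from kidneys carrying the DROSHA-E1147K transgene and 3 from wild type control kidneys. DROSHA, a nuclear RNase III, cuts hairpin precursors out of primary miRNA transcripts, and E1147K alters a residue in its catalytic part. The labels name neither the cells in which Drosha was deleted nor the promoter of the transgene. They also do not say that replicate libraries are separate animals, so p-values speak only of the spread among libraries, part or all of which may be technical.

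A primary miRNA transcript is cut by DROSHA to a hairpin and by DICER to a short duplex, and the 5p and 3p arms are the strands of that duplex. The arm that enters the silencing complex finds its target mRNAs mainly through its seed, bases 2 to 8. The miR-199a-2 and miR-214 hairpins lie in Dnm3os, a long noncoding RNA transcribed in mesenchymal tissues of the mouse embryo, and mice without Dnm3os have growth and skeletal defects. In adult kidney, miR-214 and miR-199 are best known as miRNAs of fibrosis and activated fibroblasts.

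The mature sequences are shown because the grouping of the reads rests on them. They are RefSeq's for GRCm38.p6, the assembly also called mm10, with the seed in capitals, and 5 of the 6 names had an entry.
miR-199a-3p: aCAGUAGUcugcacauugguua
miR-199b-3p: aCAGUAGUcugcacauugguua
miR-199a-5p: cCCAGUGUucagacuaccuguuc
miR-214-3p: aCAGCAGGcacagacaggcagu
miR-214-5p: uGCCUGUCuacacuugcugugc
The 3p arms of miR-199 share every base and so cannot be told apart by a read. The seed CAGCAGG of miR-214-3p is shared with miR-761 of chromosome 4, a name with no row in the deposited counts used here.

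The members come from 4 hairpins at 3 places in the genome (coordinates in mm10). Mir199a-2 lies at chr1:162217814-162217923 and Mir214 at chr1:162223368-162223477, both on the plus strand in exons of Dnm3os by GENCODE vM21, 5444 bases apart. Dnm3os itself runs antisense to Dnm3, a dynamin gene, and the hairpins overlap no Dnm3 exon. Mir199b lies at chr2:32318460-32318569 (plus strand), antisense within Dnm1, and Mir199a-1 at chr9:21496495-21496564 (minus strand), antisense within Dnm2, again outside exons. The shared 3p sequence is thus encoded at 3 loci, miR-199a-5p at 2, and miR-199b-5p and both arms of miR-214 at 1 each. The hairpins of the Dnm3os transcript are printed 5′ to 3′ with the mature arms in capitals, the 5p arm first, to show where the counted strands lie in the precursors that DROSHA acts on.
Mir199a-2: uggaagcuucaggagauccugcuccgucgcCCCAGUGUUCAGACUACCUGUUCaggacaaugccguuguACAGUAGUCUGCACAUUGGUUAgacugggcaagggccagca
Mir214: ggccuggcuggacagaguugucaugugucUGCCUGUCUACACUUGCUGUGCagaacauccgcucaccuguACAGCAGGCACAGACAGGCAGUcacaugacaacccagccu

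Known miRNAs took 24350500 to 34896599 reads per library, which was 74.7% to 81.9% of all counted reads. The share was 74.7%, 76.7% and 77.0% in knockout libraries 1 to 3 and 78.4%, 76.9% and 79.1% in transgene libraries 1 to 3. In control libraries 1 to 3 it was 81.9%, 80.9% and 81.8%, so every knockout and transgene library lay below every control. CPM values and shares of known miRNA reads are relative to this smaller total in the DROSHA groups. The least abundant member, miR-199b-5p, still had 3288 to 6911 reads per library, so no arm rested on few reads. Its coefficient of variation was 15.8% in knockout but only 2.68% in control kidneys, where counting error was not small beside the spread. Kidney epithelial miRNAs were present in every library, with 1979 to 6699 counts per 1e6 miRNA reads (CPM) for the summed tubule list (such as miR-192 and miR-204). Small RNA reads do not measure Drosha mRNA, and the genotypes were taken from the labels unchecked. In a whole kidney, fewer cells of a type and less of a miRNA per cell cannot be told apart.

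The deposited names split the shared miR-199-3p reads in a way that changed from library to library. Reads under the name miR-199a-3p made up 95.5%, 16.6% and 17.3% of the shared sequence in knockout libraries 1 to 3. They made up 83.7%, 84.8% and 16.1% in transgene libraries 1 to 3, and 6.48%, 13.2% and 16.8% in control libraries 1 to 3. In 3 libraries (knockout 1, transgene 1 and transgene 2) most of the sequence was named miR-199a-3p, and in the other 6 most was named miR-199b-3p. Taken by name, the split gives changes that the sequence does not have. miR-199a-3p alone had a log2 fold change of 2.01 for knockout over control and 2.35 for transgene over control, while miR-199b-3p alone had -0.23 for knockout over control and -1.21 for transgene over control. None of these passed the test. The sum, miR-199a/b-3p, had 0.30 for knockout over control and -0.00 for transgene over control, and it is the sum that is used from here on.

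**Figure D1:**
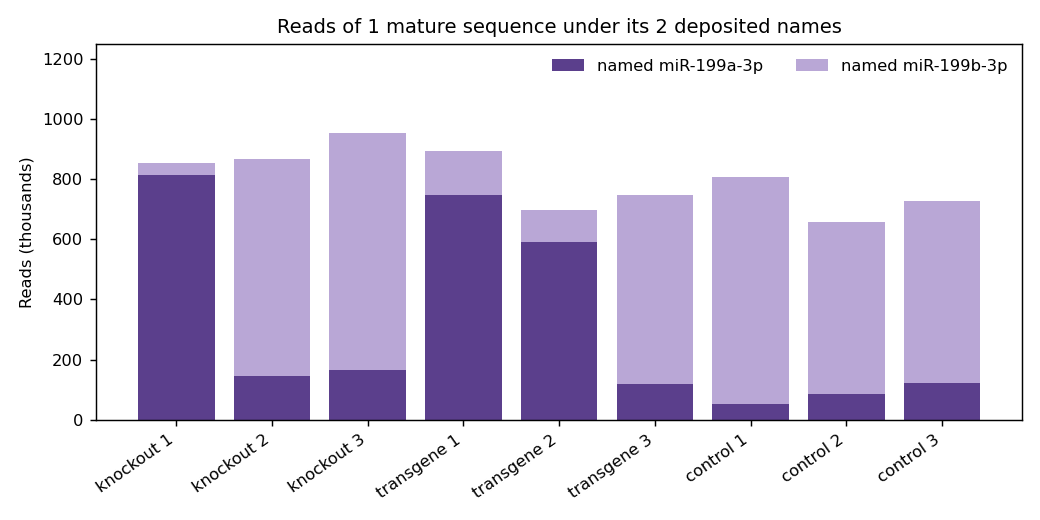
Reads of the mature sequence shared by miR-199a-3p and miR-199b-3p in each library, stacked by the deposited name. The name miR-199a-3p holds most reads in knockout 1, transgene 1 and transgene 2, and miR-199b-3p in the other libraries, while the bars' heights lie between 656677 and 953886 reads.

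miR-199a/b-3p was the most abundant arm by far and ranked 15 among all miRNAs of control kidneys by mean CPM (scaled by TMM, a factor that evens out library composition). It was at 28799, 35099 and 34414 CPM in knockout libraries 1 to 3, at 32474, 21509 and 25682 CPM in transgene libraries 1 to 3, and at 25354, 27487 and 26836 CPM in control libraries 1 to 3. All 3 knockout libraries stood above all 3 controls, and the transgene libraries lay on both sides of the controls. The means were 32771 ± 3456 CPM in knockout, 26555 ± 5534 CPM in transgene and 26559 ± 1093 CPM in control kidneys (SD, n = 3 each). For knockout over control the log2 fold change was 0.30 with a standard error of 0.17, which did not pass the 0.05 threshold (edgeR quasi-likelihood test, Benjamini-Hochberg adjusted p = 0.314). The transgene and control means were nearly equal, with a 95% interval of the log2 difference of -0.39 to 0.39.

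miR-199a-5p, the partner strand encoded at the chromosome 1 and 9 loci, ranked 44 in controls. Knockout libraries 1 to 3 had 7069, 5278 and 6094 CPM, transgene libraries 1 to 3 had 4365, 3669 and 5420 CPM, and control libraries 1 to 3 had 3516, 4933 and 5249 CPM. The lowest knockout library lay just above the highest control, by 5278 against 5249 CPM. Its log2 fold change for knockout over control was 0.43 ± 0.22 (SE) and did not pass (edgeR adjusted p = 0.275).

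miR-199b-5p, named for the chromosome 2 locus, was the rarest arm, at rank 226 in controls, and the one with the highest fold change of knockout over control. The matching stretch of the Mir199b hairpin is nearly identical to miR-199a-5p. The name took on average 3.20% of miR-199-5p reads in knockout and 2.93% in control kidneys. How reads matching both names were assigned is not stated, and whether some of its reads came from miR-199a-5p was not tested. It had 233.5, 169.7 and 207.8 CPM in knockout libraries 1 to 3, against 128.8, 143.9 and 136.9 CPM in transgene libraries 1 to 3 and 130.4, 137.6 and 134.1 CPM in control libraries 1 to 3. Every knockout library stood above every library of the other groups, and the transgene and control libraries lay within one narrow band. The group means were 203.7 ± 32.1 CPM in knockout, 136.5 ± 7.52 CPM in transgene and 134.0 ± 3.60 CPM in control kidneys (SD, n = 3 each). The log2 fold change was 0.60 for knockout over control (95% interval 0.12 to 1.09, a 1.52-fold level), with an edgeR unadjusted p of 0.0197 and an adjusted p of 0.150, so it did not pass. DESeq2 on the same counts gave 0.61 and called it at an adjusted p of 0.0330, and over all alternatives its adjusted p ranged from 0.0330 to 0.314. For knockout over transgene the log2 fold change was 0.58 (95% interval 0.10 to 1.06, edgeR adjusted p = 0.653).

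miR-214-3p, the main strand of the miR-214 hairpin at rank 80 in controls, was the arm with the widest spread within the knockout and transgene groups, though not within controls. It stood at 2596, 1272 and 2450 CPM in knockout libraries 1 to 3, at 1135, 1976 and 2973 CPM in transgene libraries 1 to 3, and at 1424, 1413 and 1669 CPM in control libraries 1 to 3. Knockout 2 and transgene 1 lay below every control, and the other libraries of the DROSHA groups lay above every control. The coefficient of variation was 34.5% in knockout, 45.4% in transgene and 9.63% in control kidneys. Its log2 fold changes of 0.49 for knockout over control and 0.43 for transgene over control had 95% intervals of -0.36 to 1.34 and -0.42 to 1.28, and neither passed (edgeR adjusted p = 0.455 and 0.711).

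miR-214-5p, the lesser strand, ranked 174 in controls. It was at 443.0, 404.2 and 330.9 CPM in knockout libraries 1 to 3, 263.5, 271.0 and 335.5 CPM in transgene libraries 1 to 3, and 272.0, 351.2 and 282.9 CPM in control libraries 1 to 3. Knockout 1 and 2 exceeded every library of the other groups, while knockout 3 lay inside their range. The log2 fold change for knockout over control was 0.38 ± 0.22 (SE; edgeR adjusted p = 0.329). Counted per 1e6 known miRNA reads without TMM factors, the knockout libraries had 493.2, 410.5 and 342.1 and the controls 247.9, 308.4 and 261.7, so there the groups did not overlap.

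**Figure D2:**
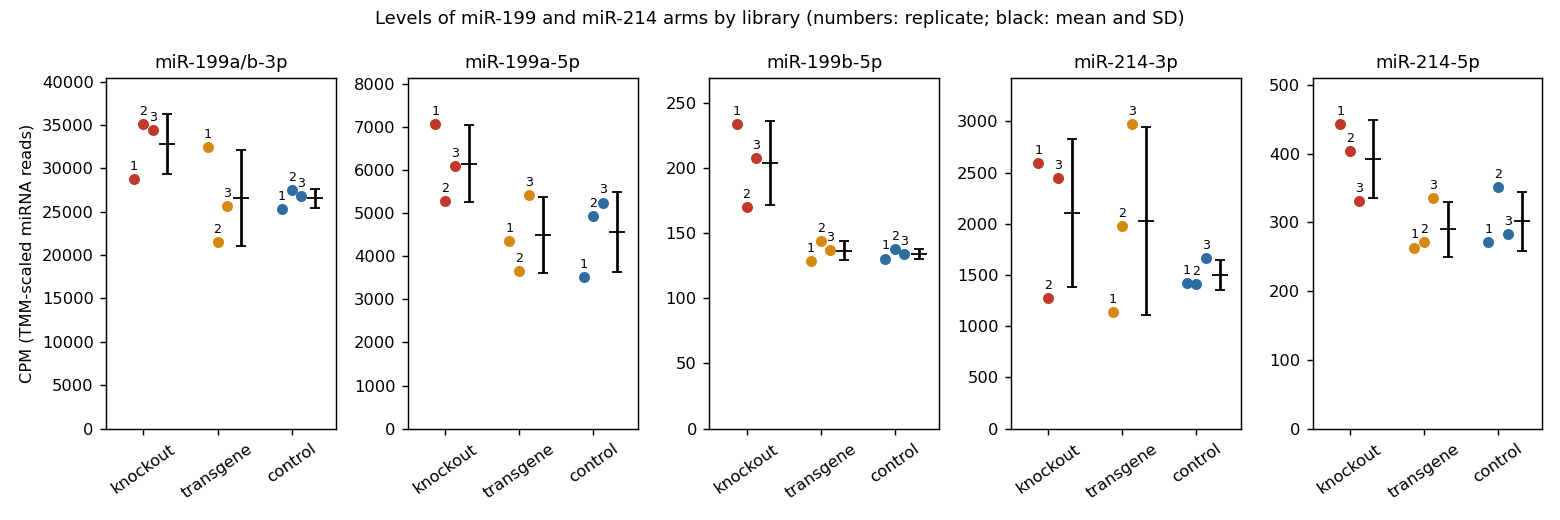
CPM (TMM-scaled known miRNA reads, linear axes from 0) of the 5 arms in each library, by group, with the replicate number above each point and mean and SD in black. Knockout libraries stand above all controls for miR-199a/b-3p, miR-199a-5p and miR-199b-5p, and miR-214-3p is spread from 1272 to 2596 CPM in knockout and from 1135 to 2973 CPM in transgene kidneys.

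Together, the arms were higher in knockout than in control kidneys by their fitted values, but no arm passed the edgeR threshold in any of the 3 comparisons. For knockout over control, 0 of 5 arms were called against a background of 0% of 954 miRNAs tested. At an unadjusted p under 0.05, 1 of 5 arms (miR-199b-5p, higher) passed, against 25.5% of all miRNAs. DESeq2 called 106 miRNAs of the table in this comparison (11.1%), and 1 of 5 arms, miR-199b-5p. Knockout and control libraries did not overlap, with knockout higher, for 3 of 5 arms (miR-199a/b-3p, miR-199a-5p and miR-199b-5p), and 12.7% of all miRNAs did the same. All 5 fold changes were above 0, as were 48.5% of all miRNAs. The arms' median log2 fold change was 0.43, against -0.03 over all miRNAs. This scale matters to the size: with totals of known miRNA reads and no TMM factors, the median of all miRNAs moved to 0.19 and miR-199a/b-3p to 0.52. On that scale 4 of 5 arms did not overlap, as did 21.2% of all miRNAs. The sign of the 5 arms stayed positive under each of the scalings tried.

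In the transgene kidneys, the miR-199 arms and miR-214-5p had fold changes close to 0. Of the 5 arms, 0 were called against a background of 0%, and DESeq2 called 0 arms and 4 miRNAs of the table (0.419%). At an unadjusted p under 0.05, 0 of 5 arms stood against 8.7% of all miRNAs. No arm's transgene and control libraries failed to overlap, while 11.8% of all miRNAs did not overlap with the transgene higher and 12.1% with it lower. Of the 5 log2 fold changes, 2 were above 0, as were 46.5% of all miRNAs. That of miR-214-3p was 0.43, given above, and ranged from 0.12 without transgene 3 to 0.68 without transgene 1. The others were -0.00, -0.03, 0.03 and -0.06 for miR-199a/b-3p, miR-199a-5p, miR-199b-5p and miR-214-5p, and the 3 at or below 0 turned positive with totals of known miRNA reads, at 0.20, 0.20 and 0.17. The 95% interval was -0.45 to 0.51 for miR-199b-5p and -0.57 to 0.45 for miR-214-5p (edgeR adjusted p = 0.973 and 0.959), so changes within those bounds remain compatible with the data. The bounds are not limits of detection. In simulated knockout against control data, the test called 14.9% of 2-fold changes given to miRNAs drawn at random from all 954. The rate for these arms alone, or for transgene against control, was not simulated.

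Set directly against the transgene kidneys, knockout kidneys had higher fitted values of all 5 arms (52.8% of all miRNAs), with log2 fold changes of 0.30, 0.45, 0.58, 0.05 and 0.44 in the order miR-199a/b-3p, miR-199a-5p, miR-199b-5p, miR-214-3p and miR-214-5p. None was called by edgeR, where the background was 0.105%, or by DESeq2, where it was 0.314%. At an unadjusted p under 0.05, 1 of 5 arms (miR-199b-5p) passed, against 7.02% of all miRNAs. The libraries did not overlap for 1 of 5 arms, miR-199b-5p, against 4.4% of all miRNAs with knockout higher. The fold change of miR-214-3p changed sign when single libraries were left out, with a range of -0.21 without transgene 1 to 0.42 without transgene 3. That of miR-199a/b-3p ranged from 0.15 without transgene 2 to 0.51 without transgene 1.

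**Figure D3:**
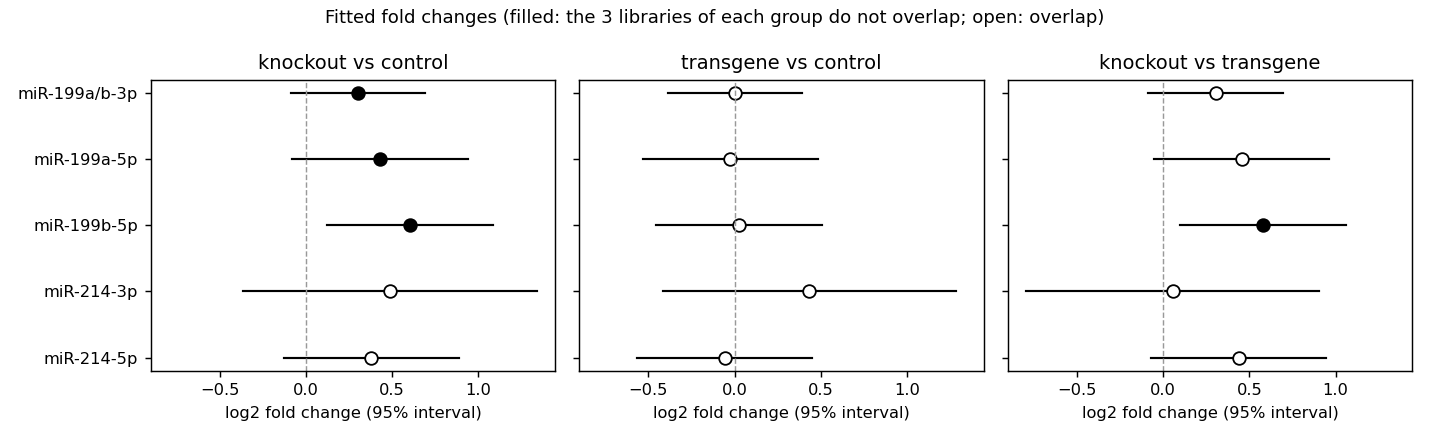
Fitted log2 fold changes with 95% intervals from edgeR for the 5 arms (rows) in knockout over control, transgene over control and knockout over transgene, filled where the 3 libraries of a group all lie on one side of the other group's. Only the intervals of miR-199b-5p in knockout over control (0.12 to 1.09) and knockout over transgene (0.10 to 1.06) lie above 0 throughout, before any adjustment for the 954 miRNAs tested.

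As a share of all known miRNA reads, the 6 names took 4.36%, 4.29% and 4.50% in knockout libraries 1 to 3, 3.49%, 3.12% and 3.88% in transgene libraries 1 to 3, and 2.80%, 3.01% and 3.16% in control libraries 1 to 3. The knockout libraries formed a tight set above all others, and only transgene 2 fell within the control range. The sum is mostly miR-199a/b-3p and describes that arm first.

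The miR-200 family (miR-200a, miR-200b, miR-200c, miR-141 and miR-429), which keeps epithelial cells epithelial by repressing the Zeb transcription factors, gives the epithelial counterpart. Its summed reads were 3.28%, 3.10% and 1.34% of known miRNA reads in knockout libraries 1 to 3, 3.14%, 2.55% and 3.24% in transgene libraries 1 to 3, and 3.71%, 3.17% and 3.50% in control libraries 1 to 3. The log2 ratio of the members to this family was 0.41, 0.47 and 1.74 in knockout, 0.15, 0.29 and 0.26 in transgene, and -0.41, -0.07 and -0.15 in control libraries. Within these 9 libraries the ratio was above 0 in each knockout and transgene library and below 0 in each control. How many other ratios of this kind separate the groups was not counted. Of the 9 tested miR-200 names, 4 were lower in every knockout library than in any control, as were 15.8% of all miRNAs. In transgene libraries 3 of the 9 were lower in this way, as were 12.1% of all miRNAs. Knockout 3 stood far from the other 2 knockout libraries through its low miR-200 reads, not through its members. Without knockout 3, the ratio of knockout kidneys was still above that of every transgene and control library. By gene, miR-429-3p averaged 10261 ± 4475 CPM in knockout, 13650 ± 3553 CPM in transgene and 17237 ± 1091 CPM in control kidneys (SD, n = 3 each), and miR-200a-3p averaged 7642 ± 3814 CPM in knockout, 8335 ± 2049 CPM in transgene and 13254 ± 2022 CPM in control kidneys. The means of miR-200c-3p and miR-141-3p were closer together. miR-200c-3p averaged 3411 ± 850 CPM in knockout, 3121 ± 768 CPM in transgene and 2981 ± 195 CPM in control kidneys, and miR-141-3p averaged 254.9 ± 81.4 CPM in knockout, 243.5 ± 65.6 CPM in transgene and 264.3 ± 29.6 CPM in control kidneys. No member of the family was called in any comparison (0 of 9 tested, against 0% to 0.105% of all miRNAs).

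**Figure D4:**
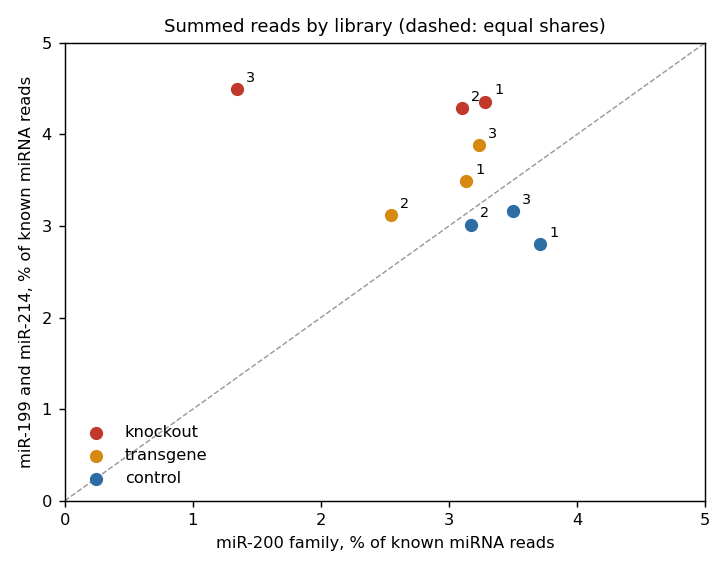
Percent of known miRNA reads taken by miR-199 and miR-214 (vertical axis) and by the miR-200 family (horizontal axis) in each library, numbered by replicate, with the line of equal shares dashed. Knockout and transgene libraries lie above the line and controls below it, and knockout 3 lies apart at 1.34% miR-200 reads.

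The stromal and smooth muscle miRNAs miR-143 and miR-145, the other mesenchymal list examined, did not stand above controls as a sum. Their summed level was 26650 to 32872 CPM in knockout, 20306 to 29415 CPM in transgene and 30175 to 37113 CPM in control libraries. Every transgene library was below every control in this sum, and the knockout libraries overlapped the controls. miR-143-3p, which makes up nearly all of it, averaged 28717 ± 3144 CPM in knockout, 25989 ± 5297 CPM in transgene and 32752 ± 3504 CPM in control kidneys (SD, n = 3 each), with a log2 fold change of -0.19 for knockout over control (edgeR adjusted p = 0.561). miR-145a-5p, made with miR-143 from one transcript, averaged 450.2 ± 170.0 CPM in knockout, 324.6 ± 132.8 CPM in transgene and 375.0 ± 78.3 CPM in control kidneys. Of the 4 tested members of this list, 0 were called in any comparison, against 0% to 0.105% of all miRNAs. In 0 of the 4 were the knockout libraries all above the controls, as they were for 12.7% of all miRNAs. For 1 of the 4 every transgene library was below every control, as was so for 12.1% of all miRNAs.

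Among marker lists of other cells, the erythroid and tubule sums separated knockout from control libraries, and the muscle, leukocyte, neural and endothelial sums overlapped. All 7 erythroid names (such as miR-451a and miR-144) had reads, with a summed level of 72006 to 113419 CPM in knockout, 27454 to 80634 CPM in transgene and 21520 to 52862 CPM in control libraries. In this sum every knockout library was above every control, and the transgene libraries overlapped both. By name, 2 of the 7 were higher in every knockout library than in any control, as were 12.7% of all miRNAs. All 7 had a fold change of knockout over control above 0, as did 48.5% of all miRNAs. The 8 tubule names were at 1979 to 2803 CPM in knockout, 2700 to 3546 CPM in transgene and 4258 to 6699 CPM in control libraries, and 7 of the 8 were lower in every knockout library than in any control, as were 15.8% of all miRNAs. The tubule sum of every transgene library was also below every control. By name, 2 of the 8 were lower in every transgene library than in any control, as were 12.1% of all miRNAs. The 7 striated muscle names (such as miR-1a and miR-133a) were at 2074, 455 and 10480 CPM in knockout libraries 1 to 3, 468 to 1643 CPM in transgene and 221 to 1255 CPM in control libraries. Knockout 3 stood alone at a high muscle level, and the groups otherwise overlapped. The 5 leukocyte names were at 557 to 1416 CPM in knockout, 567 to 1298 CPM in transgene and 481 to 887 CPM in control libraries. The 5 neural names were at 2102 to 2271 CPM in knockout, 1913 to 3386 CPM in transgene and 2043 to 3457 CPM in control libraries. The 2 endothelial names were at 34443 to 48469 CPM in knockout, 36689 to 45664 CPM in transgene and 45313 to 56556 CPM in control libraries. No listed name was at 0 over all libraries, and no tested one was called in any comparison, against 0% to 0.105% of all miRNAs. The part of these cells in the members' values was not tested. Without knockout 3, the library with the most muscle and erythroid reads, the log2 fold changes of knockout over control were 0.37 for miR-199a/b-3p, 0.54 for miR-199a-5p, 0.69 for miR-199b-5p, 0.46 for miR-214-3p and 0.59 for miR-214-5p. This omission does not test the part of erythroid cells. Knockout 1 and 2 still had erythroid sums of 72006 and 73135 CPM, above the highest control at 52862 CPM.

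The groups overlapped in every measure of strand balance. The 5p arm took 16.4 ± 3.49% of miR-199 reads in knockout, 15.0 ± 2.82% in transgene and 15.0 ± 2.14% in control kidneys (SD, n = 3 each). For miR-214 the 5p arm took 14.6%, 24.1% and 11.9% of reads in knockout libraries 1 to 3, 18.8%, 12.1% and 10.1% in transgene libraries 1 to 3, and 16.0%, 19.9% and 14.5% in control libraries 1 to 3. Knockout 2 had the highest share and transgene 3 the lowest, and the groups overlapped. The name miR-199b took 3.20 ± 0.0912% of miR-199-5p reads in knockout, 3.03 ± 0.671% in transgene and 2.93 ± 0.574% in control kidneys (SD, n = 3 each). In 9 exact two-sided permutation tests (3 shares, 3 comparisons) p lay between 0.4 and 1, each 1 after adjustment over the 9, in a design that cannot go below 0.1. The widest 95% Wilson interval of a single library's share was 0.823 percentage points, for miR-214, and covers counting error only. For the 5p shares of miR-199 and miR-214 such intervals were far below the spread between libraries. For the miR-199b share of knockout libraries they were not: the shares were 3.20%, 3.12% and 3.30%, with intervals 0.148, 0.186 and 0.168 percentage points wide.

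Correlations between the arms were compared over the libraries. Over the 9 libraries, log2 CPM of miR-214-5p and miR-214-3p, strands of one hairpin, had a Pearson r of 0.34 (Spearman rho 0.30, exact permutation p = 0.370 and 0.437). The pairs of 5p arms had the highest r of the 10 pairs, although miR-199b-5p is encoded on another chromosome than miR-214-5p. The sequences of miR-199b-5p and miR-199a-5p are nearly identical, and the part of misassigned reads in these values was not tested. For miR-199a-5p and miR-214-5p r was 0.78 and rho 0.73 (exact permutation p = 0.0129 and 0.0311), for miR-199a-5p and miR-199b-5p 0.75 and 0.70 (exact p = 0.0214 and 0.0433), and for miR-199b-5p and miR-214-5p 0.74 and 0.70 (exact p = 0.0191 and 0.0433). Of the 10 pairs, none passed adjustment, with the lowest adjusted p at 0.0713 for r and 0.144 for rho. Without the 2 libraries farthest from the median, these 3 values of r were 0.71, 0.89 and 0.76. This order did not hold within groups. On deviations from the group means, r was 0.55, 0.42 and 0.20 for the 5p pairs and 0.28 for the strands of miR-214, and the highest of the 10 was 0.71, for miR-199b-5p and miR-214-3p. miR-199a/b-3p, encoded in Dnm3os and at 2 other loci, and miR-214-3p, encoded in Dnm3os alone, had r = -0.25 and rho = -0.33 (exact p = 0.513 and 0.385).

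**Figure D5:**
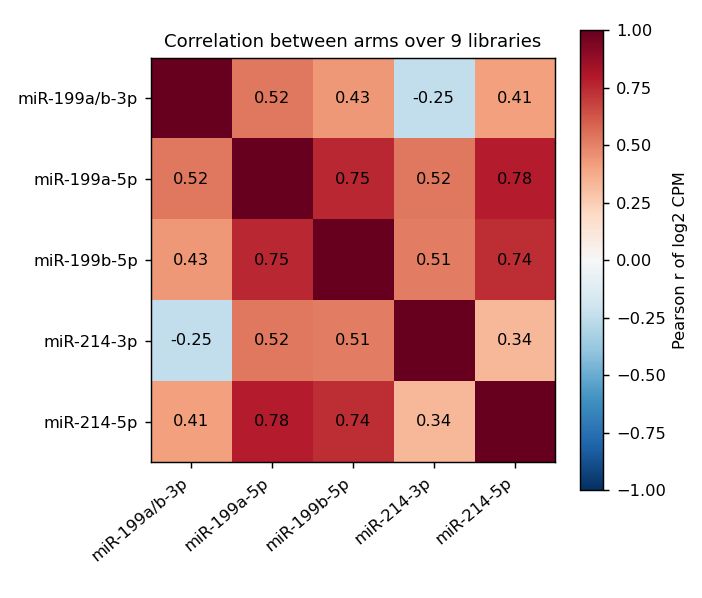
Pearson r of log2 CPM between the 5 arms over the 9 libraries, from blue (negative) to red (positive). The 5p arms correlate with each other at 0.74 to 0.78, and miR-214-3p correlates with its own 5p arm at 0.34 and with miR-199a/b-3p at -0.25.

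The miRNAs whose levels followed miR-199a/b-3p and miR-214-3p most closely over the 9 libraries were 2 different sets. Likeness was the Pearson r of log2 CPM among 459 other miRNAs averaging at least 10 CPM, and is given as a description, since the libraries share depth and scaling. For miR-199a/b-3p the highest were miR-100-5p (r = 0.96), miR-542-5p (0.94), miR-99a-5p (0.92), miR-450b-3p (0.86) and miR-449a-5p (0.84). miR-100-5p and miR-99a-5p belong to one family, and are printed because they share a seed with each other and not with miR-199.
miR-100-5p: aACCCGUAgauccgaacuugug
miR-99a-5p: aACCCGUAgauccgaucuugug
miR-100-5p had means of 7239 CPM in knockout, 4845 CPM in transgene and 5192 CPM in control kidneys, and miR-99a-5p had 31758 CPM in knockout, 25459 CPM in transgene and 28852 CPM in control kidneys. For miR-214-3p the highest were miR-193b-3p (r = 0.97), miR-671-5p (0.96), miR-324-5p (0.94), miR-674-3p (0.92) and miR-483-3p (0.92), the last of which is encoded in an intron of Igf2, the fetal growth factor gene. miR-193b-3p had means of 425.6 CPM in knockout, 384.7 CPM in transgene and 301.1 CPM in control kidneys, and the other 4 likewise had their lowest mean in controls. miR-214-3p, which they were chosen to follow, also had its lowest mean in controls, so this order is no separate result.

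The base composition of both sets is given as a description. The 5 miRNAs most like miR-214-3p held 50.0% to 69.6% G and C (median 60.9%), and miR-214-3p itself 59.1%. The 5 most like miR-199a/b-3p held 36.4% to 54.5% (median 50.0%), and miR-199a/b-3p itself 40.9%. The median of the 382 candidates with a RefSeq sequence was 47.8%. miR-199a-5p held 52.2% and miR-214-5p 54.5%. The part of base composition in the spread of miR-214-3p between libraries was not tested.
miR-193b-3p: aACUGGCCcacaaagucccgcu
miR-671-5p: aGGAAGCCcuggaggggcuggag
These, the closest to miR-214-3p, are shown with the seed in capitals: neither shares the seed CAGCAGG.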

How the data were processed

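Small RNA libraries were made from Trizol RNA by the sequencing company's own protocol, per the labels' protocols. CASAVA 1.8, Bowtie2 and the build mm10 appear in the submitters' processing notes without a role. The deposited counts are whole reads per small RNA name. The deposited TPM column, per the file headers, is the count scaled to 1e6 per file and was not tested. No source used here states how reads matching several names were assigned.

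Mature and hairpin counts of each mouse miRNA name were added (the members had mature rows only), and miR-199a-3p was added to miR-199b-3p. edgeR 4.0.16 in R 4.3.3 used TMM (factors 0.878 to 1.13), filterByExpr, 954 miRNAs, 9 libraries and group as a factor (common BCV 0.488), with quasi-likelihood tests and Benjamini-Hochberg adjustment at 0.05. CPM values use TMM-scaled miRNA totals. In simulated knockout against control data with 954 miRNAs, the test called 14.9% of 2-fold and 71.8% of 4-fold changes. Shares and correlations used exact permutation in SciPy 1.17.1. Replicate libraries of each group differed by more than read sampling (chi-square per degree of freedom at least 662). Reads carry no molecular identifiers. Alternatives were other scalings and filters, DESeq2 1.42.0, mature rows only, 2 groups only, a replicate block and leaving out each library.

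Members and lists were chosen with earlier results of these data known. Named are all members, the 5 miRNAs most like miR-199a/b-3p and like miR-214-3p, those sharing a member's seed, and examples of the miR-200 and stromal lists with a mean of at least 100 CPM. Sequences are RefSeq's.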

Additional observations from a re-analysis of the deposited data

Results flagged for a closer look

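Besides the 6 miRNA names, the files count reads to Rfam families, and the mir-199 family row was not used in any comparison above. It held 3071.3 reads per 1e6 counted reads on average in knockout libraries (SD 272, n = 3), 2552 (SD 359) in transgene and 2337 (SD 32.3) in control libraries. All 3 knockout libraries (2819, 3036 and 3359) stood above all 3 controls (2301, 2364 and 2345), which is what flagged it. Transgene 1, at 2832, stood above knockout 1. The share of Rfam rows that separate in this way was not counted. Per 1e6 known miRNA reads, 21.2% of all miRNAs had every knockout library above every control. That scale is not the one used for the Rfam row, and the share of miRNAs per 1e6 counted reads is not given here. These reads were 8.59% to 9.70% of the member and family reads of a library. The Rfam mir-214 row held 6 to 61 reads per library.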

How the results depend on the processing

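For knockout over control, all 5 log2 fold changes stayed positive under every scaling, filter, tool and omission tried with the 3p names summed, and the lowest and highest values without 1 library were 0.23 to 0.44 for miR-199a/b-3p, 0.26 to 0.54 for miR-199a-5p, 0.54 to 0.70 for miR-199b-5p, 0.33 to 0.72 for miR-214-3p and 0.30 to 0.59 for miR-214-5p. miR-199b-3p alone had -0.23. edgeR called no arm under any of them. DESeq2 called 1 member, miR-199b-5p (log2 fold change 0.61), and 106, 4 and 3 miRNAs in knockout over control, transgene over control and knockout over transgene. Without knockout replicate 1 edgeR called 48 miRNAs in knockout over control (range 0 to 48 over omissions), none of them a member. The 1 miRNA called in knockout over transgene was lost (0 called) with 2 groups only, with a replicate block and without most single libraries (range 0 to 1).

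For transgene over control, miR-214-3p stayed positive under every alternative (0.12 to 0.68 without 1 library), while the fold changes of the other 4 arms lay near 0 and turned sign under some. miR-199a/b-3p had 0.011 with RLE factors and with DESeq2, 0.20 with miRNA totals, 0.14 with all counted reads, 0.057 with factors from DROSHA-independent miRNAs, 0.050 without the low count filter, 0.10 with 2 groups only, 0.069 with mature rows only and 2.35 for miR-199a-3p alone. miR-199a-5p had 0.20, 0.14, 0.032, 0.027, 0.071 and 0.048 with miRNA totals, all counted reads, DROSHA-independent factors, no filter, 2 groups only and mature rows only. miR-214-5p had 0.17, 0.11, 0.040 and 0.017 with miRNA totals, all counted reads, 2 groups only and mature rows only. Leaving out 1 library gave -0.22 to 0.20 for miR-199a/b-3p, -0.21 to 0.17 for miR-199a-5p, -0.027 to 0.095 for miR-199b-5p and -0.16 to 0.063 for miR-214-5p. For knockout over transgene, miR-199a-3p alone had -0.33, and miR-214-3p had -0.020 with all counted reads, -0.0035 with mature rows only and -0.21 to 0.42 without 1 library. The cause of these turns was not tested.

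Differences of shares without 1 library (percentage points) ranged from -0.50 to 2.90 (knockout minus control), -1.34 to 1.47 (transgene minus control) and -0.54 to 2.85 (knockout minus transgene) for the 5p share of miR-199, from -3.57 to 2.53 (knockout minus control) and -0.44 to 5.76 (knockout minus transgene) for that of miR-214, and from -0.26 to 0.43 (transgene minus control) and -0.12 to 0.54 (knockout minus transgene) for the miR-199b share of miR-199-5p.

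Same-numbered libraries did not deviate together (correlations -0.302 to 0.104, 1 of 9 pairs over 0.1). This check cannot tell whether the numbers pair the libraries, since the deviations of the 3 libraries of a group sum to 0. With the replicate number as a block, miR-199b-5p had 0.60 for knockout over control (edgeR adjusted p = 0.249), and 0 miRNAs were called in each comparison.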
